A study of Mus musculus with 4 samples.

Results

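The genes of the caveola coat were followed in differentiating neural stem cells, wild-type or with a knockout of Qk, which encodes the RNA-binding protein Quaking. They were 8 of the 35857 genes listed, chosen by symbol: the caveolin genes Cav1, Cav2 and Cav3, the cavin genes Cavin1 (listed as Ptrf), Cavin2 (Sdpr) and Cavin3 (Prkcdbp), and Ehd2 and Pacsin2. Of these, 7 had a mean of at least 1 TPM (transcript abundance corrected for length, as a share of the library), and Cav3 was listed at 0 in every library. The choice was made with results of the same Qk_KO against control contrast known, so differences of the coat genes are given below as a description, with no p-values. Where the fit over all genes called a coat gene, the call is counted beside the share called over all genes, and nothing is read from it.

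Neural stem cells had been grown from the cerebral cortex of C57BL/6 mouse embryos, and RNA was taken at 24 hr of induced glial differentiation. There were 2 wild-type (control) and 2 Qk-/- (Qk_KO) libraries of poly(A)-selected RNA. The labels give neither the knockout allele nor what drove the deletion, and they do not say whether the libraries of a group are separate cultures. Xist and Eif2s3y, below, show that the Qk_KO libraries came from embryos of different sex, so their spread is not only technical. For the control libraries, which matched in both genes, the spread may be technical, and the p-values measure the spread between these libraries. Read depth cannot be recovered from TPM, so precision is known only from the spread between libraries. Qk itself stood at 208 and 215 TPM in the control libraries and at 36.1 and 43.7 TPM in the Qk_KO libraries, each on the side its label gives. It fell by 2.38 on the log2(TPM + 1) scale (SE 0.12, adjusted p = 0.00708 in limma, Benjamini-Hochberg), a call lost when either control library was left out and when low genes were not filtered, with p up to 0.117.

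Qk_KO replicate 1 stood apart from the other libraries in 2 respects. Xist, transcribed from the inactive X chromosome, was at 0.04 TPM there and between 57.6 and 62.5 TPM in the other libraries, while Eif2s3y, a gene of the Y chromosome, was at 35.4 TPM there and listed at 0 in the others. It was thus the only library from male cells. Acta2, the smooth muscle actin gene, was at 3484 TPM in it and between 1130 and 1604 TPM in the others. Differences without this library are given beside the main ones for Cav1, Cav2, Cavin1 and Cavin3. The neural stem cell and glial progenitor list had all 20 genes above the 1 TPM filter, with Fabp7 between 2354 and 3144 TPM, Sox2 between 195 and 239 TPM and Olig2 between 377 and 517 TPM.

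Caveolae are small flask-shaped pits of the plasma membrane, common in endothelial cells, adipocytes, muscle and fibroblasts and also seen in astroglia. Caveolins insert into the inner leaflet as oligomers with cholesterol, cavins join them from the cytosol to form the outer coat, and EHD2 and pacsin 2 hold and shape the neck. Caveolae flatten under membrane tension and take part in lipid handling and in signalling at the cell surface.

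Cav1 and Cav2 were the coat genes with the largest differences, at 33.6% and 29.3% of their control means, and Cavin1 was lower by a smaller amount. Cavin3, Ehd2 and Pacsin2 differed between groups by less than their spread within the controls. The caveolins were thus the lowest relative to control, and Cavin1 and the low gene Cavin2 lay between, at 57.7% and 60.8%. Cavin3 and the neck genes overlapped between groups.

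Cav1 encodes caveolin-1, without which most non-muscle cells form no caveolae. Control replicate 1 had 461 TPM and control replicate 2 had 676 TPM, against 148 TPM in Qk_KO replicate 1 and 235 TPM in Qk_KO replicate 2. The groups did not overlap, and the gap between them was wider than the distance between the Qk_KO libraries. The means were 568 ± 152 and 191 ± 61.4 TPM (SD, n = 2), so that Qk_KO was at 33.6% of control, and the difference on the log2(TPM + 1) scale was -1.58 (SE 0.27). It was -1.25 without Qk_KO replicate 1 and -1.91 without Qk_KO replicate 2. Among all genes listed, Cav1 took rank 294 and rank 194 by TPM in the control libraries and rank 1200 and rank 688 in the Qk_KO libraries.

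Cav2 encodes caveolin-2, which depends on caveolin-1 to leave the Golgi and enters the same oligomers. Its values were 93.2 and 127 TPM in the controls against 27.5 and 37.1 TPM in Qk_KO, and the groups did not overlap. The means were 110.1 ± 23.9 and 32.3 ± 6.85 TPM (SD, n = 2), Qk_KO standing at 29.3% of control with a log2 difference of -1.74 (SE 0.21). Without Qk_KO replicate 1 the difference was -1.53. Cav3, the muscle caveolin gene, was listed at 0 throughout, and no muscle marker of the 12 on that list reached the 1 TPM filter.

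**Figure D1:**
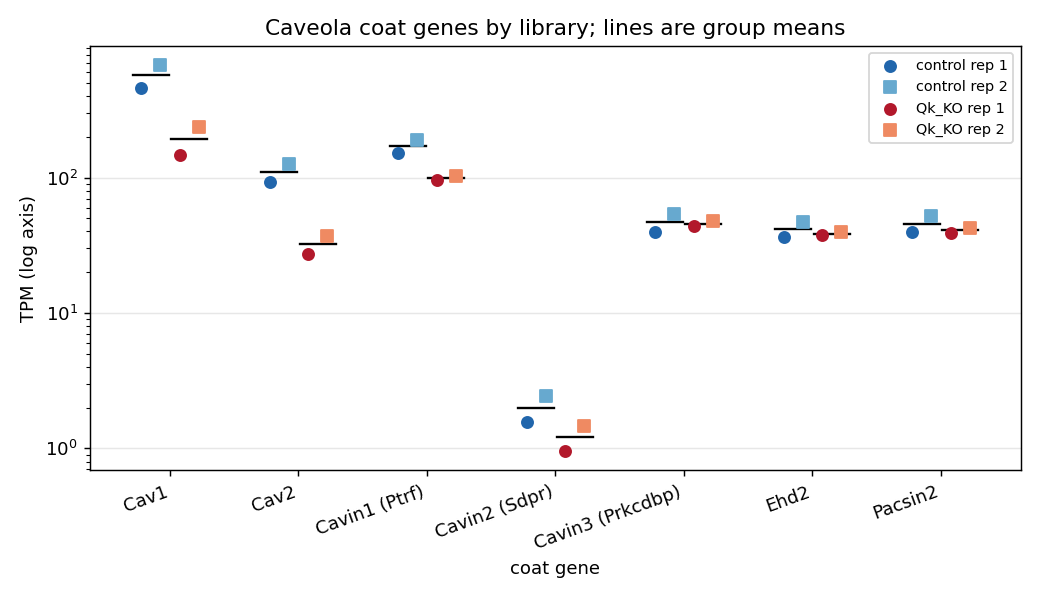
TPM of the 7 coat genes above 0, on a log axis, with 1 point per library and a line at each group mean. The Qk_KO points of Cav1, Cav2, Cavin1 and Cavin2 lie below both control points, while those of Cavin3, Ehd2 and Pacsin2 lie within the control range or at its lower edge.

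Cav2 and Cav1 are neighbours on chromosome 6 of GRCm38, both on the plus strand. Cav2 spans 17281185 to 17289115 and Cav1 17306335 to 17341452, with 17219 bases between them. Over the 4 libraries the distance between their centred log2 values was 0.24, against 0.91 between Cav1 and Cavin1 and 1.49 to 1.61 between Cav1 and Ehd2, Pacsin2 or Cavin3. Genes outside the coat lay nearer to Cav1 than Cav2 did, among them Apoe at 0.09 and Kcnf1 at 0.22. Both caveolin genes were chosen with this contrast known, so nothing is read from their distance. Of the nearest protein-coding genes on the far side of Cav1, Met, the receptor of hepatocyte growth factor, was at 26.5 and 44.7 TPM in control and 11.4 and 20.03 TPM in Qk_KO (log2 difference -1.14, adjusted p = 0.104 in limma, Benjamini-Hochberg). Capza2, an actin capping protein gene, was at 112 and 125 TPM against 91.9 and 82.7 TPM (-0.43, adjusted p = 0.0784 by limma). The groups did not overlap for either gene, lower in Qk_KO, as for 27.5% of all genes tested, and neither passed the test. On the side of Cav2, Tes was at 4.28 and 4.57 TPM against 4.47 and 5.07 TPM (0.09, adjusted p = 0.765 by limma), and Tfec was below the filter.

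The other coat genes are spread over the genome, with Cav3 at 112459505 to 112472872 of chromosome 6, Cavin1 at 100956733 to 100970887 of chromosome 11, Cavin2 on chromosome 1, Cavin3 and Ehd2 on chromosome 7 and Pacsin2 on chromosome 15.

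The cavins were led by Cavin1, the cavin that every caveola needs. Cavin1 stood at 152 and 190.02 TPM in the controls and at 95.4 and 102 TPM in Qk_KO. Its groups did not overlap, and the Qk_KO libraries were close together. The means were 171 ± 27.1 and 98.7 ± 4.58 TPM (SD, n = 2), or 57.7% of control, with a log2 difference of -0.78 (SE 0.13) that was -0.73 without Qk_KO replicate 1. Cavin2, which shapes caveolae in some endothelia, was near the limit of the filter, at 1.57 and 2.43 TPM against 0.96 and 1.47 TPM. Its Qk_KO values also lay below the control values, by a narrow margin, with a mean at 60.8% of control. The log2 difference was -0.43 (SE 0.26), and at this level it depends on the 1 added to TPM: with 0.1 added it was -0.67.

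Cavin3, which links caveolae to kinase signalling, was at 39.9 and 53.9 TPM in the controls and 43.9 and 47.7 TPM in Qk_KO. Both Qk_KO values lay between the control values, and the log2 difference was -0.02 (SE 0.16). The proportion of Cavin1 to Cavin3 differed between the groups: the ratio of Cavin1 to Cavin3 TPM was 3.80 and 3.52 in the controls and 2.17 and 2.14 in Qk_KO. Cavin3 made up 20.7% and 21.9% of the summed TPM of the 3 cavins in the controls and 31.3% and 31.6% in Qk_KO. These ratios compare shares within a library, so a change of scale common to all genes of a library does not affect them.

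The genes of the caveola neck overlapped between groups. Ehd2 encodes an ATPase that assembles at the neck and restrains caveolae at the surface. It was at 36.7 and 47.3 TPM in control and 37.7 and 39.4 TPM in Qk_KO, with a log2 difference of -0.11 (SE 0.15). Pacsin2, whose F-BAR domain bends membrane, was at 39.4 and 51.8 TPM in control and 39.2 and 42.6 TPM in Qk_KO, with a log2 difference of -0.14 (SE 0.15). Without control replicate 2 the differences of Cavin3, Ehd2 and Pacsin2 were 0.19, 0.07 and 0.05, and without Qk_KO replicate 1 that of Cavin3 was 0.04, so their sign rested on single libraries.

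In all, 3 of the 7 coat genes above the filter passed an adjusted p of 0.05 in the fit over all genes (limma, Benjamini-Hochberg), all lower in Qk_KO: Cav1, Cav2 and Cavin1. Over all 13260 genes tested the share called was 3.24%, with 1.42% lower and 1.83% higher. The groups of 4 coat genes did not overlap, all lower in Qk_KO, beside 27.5% of all genes tested. Because the genes were chosen with this contrast known, nothing is read from these counts. The median log2 difference of the 7 was -0.43, which is the value of the low gene Cavin2, beside 0.04 over all genes tested. The 3 calls were all lost when any one library was left out, with no filter and without limma's trend, and 2 of them remained under quantile normalization (Cav1 and Cav2) and robust settings (Cav2 and Cavin1).

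**Figure D2:**
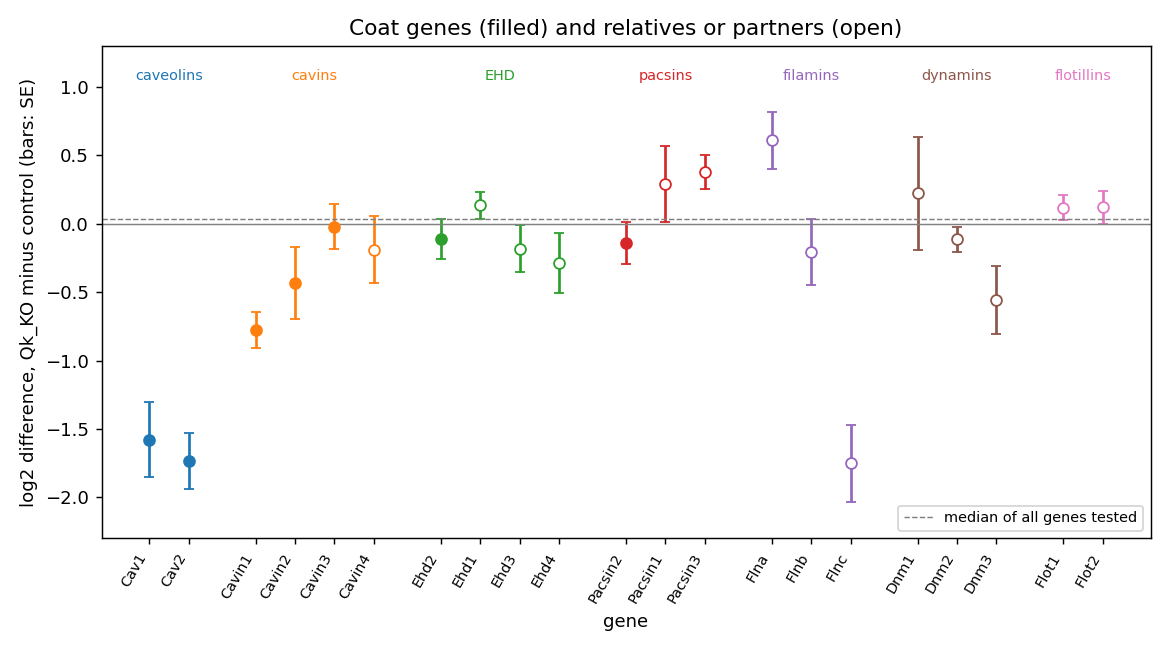
Log2 difference (Qk_KO minus control, log2(TPM + 1) scale) with its SE for the coat genes (filled points) and for relatives and partners (open points), grouped by family. Cav1, Cav2 and Flnc lie lowest, at -1.58, -1.74 and -1.75, and the dashed line is the median of all genes tested, 0.04.

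The proportions of the coat genes also differed between the groups. Summed over the 8 genes, coat TPM was 823 and 1148 in the controls and 392 and 505 in Qk_KO. Cav1 made up 55.97% and 58.8% of that sum in the controls and 37.7% and 46.5% in Qk_KO. Within the caveolins the groups lay apart only narrowly: Cav1 was 4.94 and 5.32 times Cav2 in the controls and 5.38 and 6.31 times Cav2 in Qk_KO. Against the cavins the gap was wider. The ratio of caveolin to cavin TPM was 2.87 and 3.26 in the controls and 1.25 and 1.80 in Qk_KO, and Cav1 was 3.04 and 3.56 times Cavin1 in the controls against 1.55 and 2.30 times in Qk_KO. No value of either ratio overlapped between the groups. TPM ratios compare RNA and not protein in the coat.

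**Figure D3:**
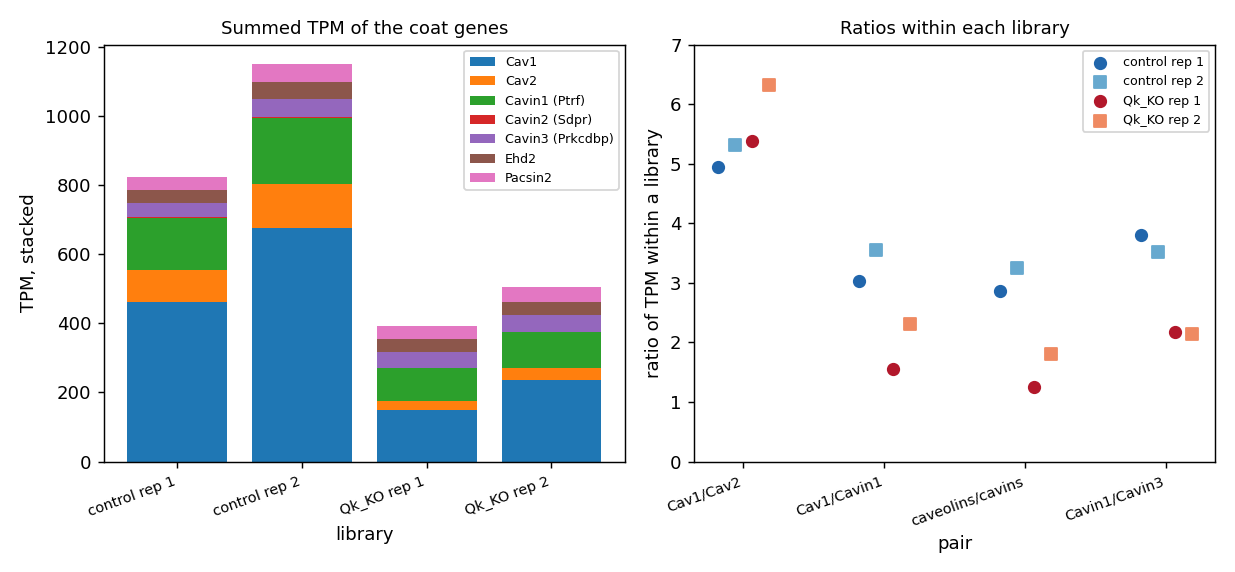
Left, TPM of the coat genes stacked per library; right, ratios of TPM within each library, 1 point per library. The Cav1 to Cav2 ratio lies between 4.94 and 6.31 in all libraries, while the caveolin to cavin ratio is 2.87 and 3.26 in control and 1.25 and 1.80 in Qk_KO.

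Libraries of the same group also differed. All 7 coat genes above 0 were higher in control replicate 2 than in control replicate 1, by factors of 1.25 (Cavin1) to 1.55 (Cavin2), and all 7 were higher in Qk_KO replicate 2 than in Qk_KO replicate 1, by factors of 1.04 (Ehd2) to 1.59 (Cav1). Over all genes tested, 25.4% were higher in replicate 2 in both groups. This spread is the main error of the differences above, and for Cav1 it gave SDs of 26.7% of the mean in control and 32.1% in Qk_KO.

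Promoter sequences are shown for Cav1, Cav2 and Cavin1, the 3 coat genes furthest below control, to set their letters side by side. They are the bases before a RefSeq start of Cav1 (chr6:17306085-17306334, plus strand), Cav2 (chr6:17280935-17281184, plus strand) and Cavin1 (chr11:100970618-100970867, minus strand) on GRCm38.p6, 5′ to 3′, with matches to the motifs searched in capitals.
Cav1: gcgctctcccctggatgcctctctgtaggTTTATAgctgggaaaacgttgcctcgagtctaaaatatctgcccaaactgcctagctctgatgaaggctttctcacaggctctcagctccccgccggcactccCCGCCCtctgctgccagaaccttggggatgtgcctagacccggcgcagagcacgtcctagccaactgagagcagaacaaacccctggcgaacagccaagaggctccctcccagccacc
Cav2: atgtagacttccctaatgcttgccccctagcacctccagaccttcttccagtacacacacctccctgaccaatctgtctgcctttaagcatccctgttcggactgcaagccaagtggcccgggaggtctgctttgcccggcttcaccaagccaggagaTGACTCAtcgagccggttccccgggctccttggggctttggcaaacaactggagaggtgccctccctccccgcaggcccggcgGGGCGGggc
Cavin1: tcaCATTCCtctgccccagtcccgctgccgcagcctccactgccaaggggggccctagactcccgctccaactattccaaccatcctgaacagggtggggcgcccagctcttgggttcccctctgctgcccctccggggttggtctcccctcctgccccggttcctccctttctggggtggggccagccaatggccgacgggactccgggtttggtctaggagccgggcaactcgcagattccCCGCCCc
The motifs were GGGCGG (the GC box), TATAAA (the TATA box), GGAATG (the core read by TEAD factors), TGANTCA (the AP-1 site), GTAAACA (read by FOXO factors) and the CArG box of serum response factor, on both strands. On the other strand, a GC box stood 118 bases before the start of Cav1 and 7 before that of Cavin1. The GC box of Cav2 was on the strand printed, 9 bases before the start. Of all RefSeq promoter windows of this length, 32.7% hold a GC box. The Cav1 window also had a match to the TATA box on the other strand, 221 bases before the start (12.4% of windows). The Cav2 window had an AP-1 site 92 bases before the start (6.75%). The Cavin1 window had a TEAD core on the other strand, 247 bases before the start (12.6%). RefSeq gives Cav1 another start, and the window before it (chr6:17307390-17307639) held none of the motifs, the GC and TATA boxes included. A further start of Cavin1 lies 2 bases away and its window held the same matches. None of the windows held a CArG box (1.47%) or a FOXO site (3.17%). The 3 windows printed were rich in G and C, at 59.6%, 62.0% and 67.6% against a median of 52.4%. This was not particular to them: windows of Ehd2 (58.0%) and Pacsin2 (62.0%), whose groups overlapped, also held a GC box. Windows before other Pacsin2 starts, at 46.4% and 50.8%, held no GC box, and the former held an AP-1 site. The Cavin2 window, at 40.4%, held no GC box. A match is a description of letters and not a site in use.

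Quaking is known to bind ACUAA-type elements in 3′ UTRs, so the hexamers ACTAAC and ACTAAT were counted on the sense strand of each gene's longest coding transcript (GENCODE M21). Each count is given with the share of tested genes that had at least 1 match among those with a 3′ UTR within 20% of that gene's length. Cav2 had 2 matches (46.4% of such genes had at least 1), Cavin2 had 2 (36.2%) and Pacsin2 had 1 (45.8%). Cav1 had 0 matches in 1998 bases (45.6%), Cavin1 had 0 in 1891 bases (43.5%), Cavin3 had 0 (19.3%) and Ehd2 had 0 (62.6%). Such matches are thus common in 3′ UTRs of these lengths. The sites of Cav2 and Pacsin2 are printed to show the bases around the hexamer, which is in capitals.
Cav2 site 1: tttgctattgtACTAATctcattatata
Cav2 site 2: gtaaattagaaACTAACattacaaattt
Pacsin2 site: acagtaagaagACTAACttttcaaaaca
No match says only that these letters are not in that UTR, and introns and coding exons were not searched.

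Among the wider family and partner genes, 1 passed the test. Of 41 genes on the caveola partner list (relatives of the coat proteins, dynamins, filamins and signalling proteins reported at caveolae), 37 were tested. Limma called 0 of them higher and 1 lower, beside 1.83% and 1.42% of all genes tested, and 36 missed the threshold. The median log2 difference was -0.11. The groups did not overlap for 16 genes lower and 7 higher in Qk_KO, beside 27.5% and 33.6% of all genes tested. The gene that fell was Flnc, a filamin, the family that ties caveolae to actin filaments. It was at 76.9 and 125 TPM in control and 23.3 and 34.7 TPM in Qk_KO, without overlap, and fell by 1.75 on the log2 scale (SE 0.28, adjusted p = 0.0448 in limma, Benjamini-Hochberg). This call was lost in 6 of 15 alternatives, among them leaving out any one library, with adjusted p between 0.00669 and 0.295 over all of them. Flna, which binds caveolin-1, lay the other way, at 159 and 166 against 310.0 and 198 TPM (adjusted p = 0.137), so that Flnc made up 26.1% and 35.1% of filamin TPM in control and 5.79% and 12.6% in Qk_KO.

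Relatives of the coat proteins, named here after their values were seen, ranged from near the filter to well above Ehd2 and Pacsin2. Ehd1 was the most abundant EHD gene, at 112 and 114 TPM in control and 118 and 131 TPM in Qk_KO, and Ehd2 made up between 19.2% and 23.4% of EHD TPM in every library. Pacsin2 made up 61.3% and 69.8% of pacsin TPM in control and 54.7% and 58.7% in Qk_KO, Pacsin3 standing at 23.6 and 21.4 against 31.3 and 27.7 TPM. Cavin4 (listed as Murc), the muscle cavin, was between 1.02 and 1.81 TPM. The ubiquitous dynamin gene Dnm2, whose product cuts vesicles from the membrane, was between 100.2 and 112 TPM in all libraries. None of these relatives passed the test.

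Partners at the cell surface had groups that did not overlap in both directions, without passing the test. Lower in Qk_KO were the following. Anxa2, an annexin that binds membrane and actin, was at 426 and 493 against 324 and 258 TPM (adjusted p = 0.0629 in limma, Benjamini-Hochberg). S100a10, its partner, was at 473 and 749.96 against 341 and 248 TPM (adjusted p = 0.0760 by limma), and Cd44, a hyaluronan receptor, was at 58.5 and 96.4 against 25.8 and 40.3 TPM (adjusted p = 0.0775 by limma). Plvap, the protein of the diaphragm across endothelial caveolae, was at 11.4 and 14.7 against 5.59 and 7.98 TPM (adjusted p = 0.0778 by limma). Higher in Qk_KO were Tgfbr1 and Tgfbr2, receptors of transforming growth factor beta, and Insr, the insulin receptor gene. Tgfbr1 was at 10.7 and 11.8 against 13.0 and 12.7 TPM (adjusted p = 0.417 by limma), and Tgfbr2 was at 2.88 and 3.10 against 5.72 and 3.91 TPM (adjusted p = 0.186 by limma). Insr was at 21.7 and 22.4 against 23.4 and 25.3 TPM (adjusted p = 0.465 by limma). These 7 were picked after their values were seen.

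Genes of clathrin coats and of other rafts were read from the same fit, and no test of their difference from the caveolins was made. Over all genes tested 1.83% were called higher and 1.42% lower, and nothing is read from the single calls in the lists that follow. Of 36 clathrin coat genes, 0 were called higher and 1 lower, 35 missed the threshold, and the median log2 difference was 0.11. Necap2, an adaptor-binding protein of clathrin-coated vesicles, fell from 79.8 ± 4.07 to 40.6 ± 4.99 TPM (SD, n = 2; adjusted p = 0.0365 by limma). In the flotillin and raft protein list 1 of 15 was called higher and 0 lower, and 14 missed the threshold, with a median of 0.12. Stom, which encodes the raft protein stomatin, rose from 17.6 ± 1.64 to 34.1 ± 3.65 TPM (adjusted p = 0.0426 by limma). The flotillins build caveolin-free rafts. Flot1 was between 168 and 194 TPM and Flot2 between 101 and 126 TPM.

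In the list of F-BAR and membrane-bending genes 0 of 18 passed the test. Its most abundant members were Mtss1 at 46.9 ± 10.6 in control and 90.01 ± 16.6 TPM in Qk_KO, and Fnbp1l at 49.2 ± 7.78 and 64.9 ± 3.64 TPM (SD, n = 2; adjusted p = 0.0622 and 0.135 by limma). Among 20 genes that make sphingolipids and phosphatidylserine, lipids gathered in caveolae, 0 were called higher and 1 lower, and 19 missed the threshold, with a median of -0.08. Degs1, which makes ceramide from dihydroceramide, fell from 115 ± 18.6 to 59.1 ± 0.439 TPM (adjusted p = 0.0426 by limma). Of 24 YAP and serum response targets, a program that reacts to tension, 0 were called higher and 1 lower, and 23 missed the threshold, with a median of -0.09. Axl, a receptor kinase, fell from 66.3 ± 4.25 to 37.3 ± 1.71 TPM (adjusted p = 0.0387 by limma). The calls of Necap2, Stom, Degs1 and Axl were each lost when any one library was left out, and their largest adjusted p over the alternatives was 0.301.

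The 5 genes whose profile over the 4 libraries lay nearest to that of Cav1, apart from coat genes, were Apoe, Il1rap, Vwc2, Flnc and Kcnf1, with distances of 0.09 to 0.22 between centred log2 values. Apoe, the lipid carrier secreted by astroglia, was at 1084 and 1620 TPM in control and 327 and 559 TPM in Qk_KO, a log2 difference of -1.63 beside -1.58 for Cav1. Il1rap, a subunit of interleukin-1 receptors, was at 19.8 and 33.3 TPM against 5.50 and 9.68 TPM. The 5 were picked for nearness to Cav1 in these same libraries, so their lower values in Qk_KO follow from that choice and are no test. With 4 libraries such likeness is a description of these samples and says nothing of shared control.

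In bulk RNA, fewer cells of a type and less RNA per cell cannot be told apart, so marker lists of cell types rich in caveolae were read in the same libraries. Of 16 endothelial markers, 12 were below the filter. Pecam1 was between 0.20 and 0.26 TPM and Cdh5 between 0 and 0.04 TPM, and the summed list was 12.4 and 12.8 TPM in control and 14.9 and 15.4 TPM in Qk_KO. Of the 4 endothelial markers tested, 0 were called. The most abundant were Eng, at 3.25 and 3.52 against 3.89 and 4.12 TPM, and Kdr, at 2.59 and 3.16 against 4.11 and 3.97 TPM. For these 2 the groups did not overlap, higher in Qk_KO (33.6% of all genes tested did so; adjusted p = 0.507 and 0.240 by limma). The fibroblast and meninges list summed to 131 and 99.6 TPM in control and 68.6 and 77.1 TPM in Qk_KO, with 1 of 8 genes tested called (lower; 1.42% of all genes tested), Pdgfra, which oligodendrocyte precursors also express. Without Pdgfra, left out after its values were seen, the list summed to 78.2 and 63.7 TPM in control and 63.2 and 65.0 TPM in Qk_KO, and the groups overlapped. Of the other 7 genes tested, Col1a1 had lower values in both Qk_KO libraries, at 26.6 and 20.4 against 16.1 and 15.9 TPM, Islr had higher ones, at 0.68 and 0.64 against 3.81 and 1.36 TPM, and 5 overlapped. The adipocyte list summed to 19.5 and 18.9 against 11.6 and 13.3 TPM with 0 of 3 called. For all 3 the groups did not overlap, lower in Qk_KO (27.5% of all genes tested did so). Lpl led the adipocyte list at 10.5 ± 1.04 and 6.30 ± 0.290 TPM. Pparg was at 3.95 ± 0.0706 and 2.22 ± 0.792 TPM and Cebpa at 3.77 ± 0.0424 and 3.58 ± 0.113 TPM (SD, n = 2). Adipoq was at most 0.12 TPM. Cav1 alone was above the sum of each of these 3 lists in every library, and below the sum of the pericyte and smooth muscle list in every library. Such sums do not measure how much Cav1 RNA came from these cells, which was not tested.

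The pericyte and smooth muscle list summed to 1741 and 1610.4 TPM in control and 4084 and 1888 TPM in Qk_KO, most of it Acta2 and Tagln, while Pdgfrb was between 2.57 and 3.47 TPM. None of its 7 genes tested was called. Muscle markers summed to at most 2.79 TPM, with Myog at most 0.05 TPM. The microglia and macrophage list summed to 91.0 and 83.5 TPM in control and 46.4 and 39.4 TPM in Qk_KO. For all 12 of its tested genes the groups did not overlap, lower in Qk_KO (27.5% of all genes tested did so), and 0 were called. Of its members, Tyrobp was at 10.9 ± 1.42 TPM in control and 4.38 ± 1.41 TPM in Qk_KO (SD, n = 2), and Aif1 was at most 0.88 TPM. What part the lists with lower sums in Qk_KO (adipocyte, microglia and, through Pdgfra, fibroblast) had in the coat gene differences was not tested.

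**Figure D4:**
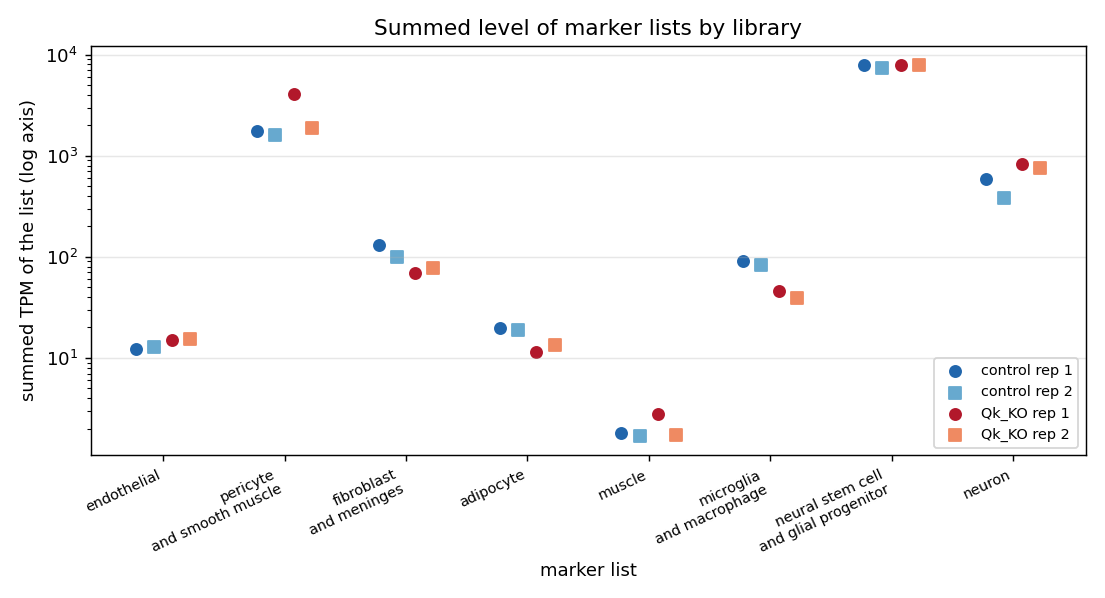
Summed TPM of 8 marker lists, on a log axis, 1 point per library. The endothelial list lies between 12.4 and 15.4 TPM in all libraries, the microglia list is at 91.0 and 83.5 TPM in control and 46.4 and 39.4 TPM in Qk_KO, and Qk_KO replicate 1 stands above the rest in the smooth muscle list.

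Among the glial progenitor markers, 2 of 20 were called higher and 2 lower, beside 1.83% and 1.42% of all genes tested, and 16 missed the threshold. Aqp4, the water channel gene, rose from 4.35 ± 0.742 to 32.2 ± 4.13 TPM, and Pax6, a radial glia factor, rose from 20.9 ± 4.29 to 47.4 ± 2.21 TPM (SD, n = 2; adjusted p = 0.0123 and 0.0423 by limma). Slc1a3, the astroglial glutamate transporter gene, fell from 387 ± 68.6 to 133 ± 23.6 TPM and Pdgfra from 44.5 ± 12.2 to 8.75 ± 4.77 TPM (adjusted p = 0.0324 and 0.0461 by limma). Of 12 neuron markers tested, 1 rose, Snap25, from 15.5 ± 3.78 to 34.5 ± 4.24 TPM (adjusted p = 0.0481 by limma), 0 were lower and 11 missed the threshold, beside the same shares over all genes. All 5 calls were lost without either control library and without Qk_KO replicate 1, and those of Slc1a3, Pax6 and Snap25 also without Qk_KO replicate 2, with adjusted p up to 0.295 over the alternatives. The lower caveolin values stood beside lower values of some astroglial genes and higher values of others.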

How the data were processed

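The authors deposited gene-level TPM in 1 table per library. Per the submitters' processing notes, the tools were STAR 2.4.1d and RSEM 1.3.0 and the builds mm10 and GRCm38.p4; the annotation, filters and strand setting are not named there. The coat genes and lists were chosen with earlier results of these data known.

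The 13260 of 35857 genes whose mean over the 4 libraries was 1 TPM or more were fitted as log2(TPM + 1) with limma 3.58.1 (trended eBayes, R 4.3.3), Qk_KO minus control, as a two-sided test, with p-values adjusted by Benjamini-Hochberg over all genes and a threshold of 0.05. Fold changes understate low genes. An exact test of 2 against 2 libraries cannot reach this threshold, and the p-values depend on the spread that limma shares between genes. The fit was tested on simulated data.

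Named genes were Qk, the coat genes, up to 6 called members of each list (or the 2 most abundant), fixed defining markers and the 5 genes nearest to Cav1; 1 gene that the rule took is not reported here. All list entries matched by symbol. Positions and 3′ UTRs came from GENCODE M21 (GRCm38) and promoters from RefSeq, which held 7 of the coat genes (not Cavin3). Alternatives were other pseudocounts, filters, scalings, limma settings, a replicate block and leaving out each library; removing the loess trend on transcript GC content was added after seeing the data. Figures used matplotlib 3.10.9.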

Additional observations from a re-analysis of the deposited data

How the results depend on the processing

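The log2 differences of Cav1, Cav2 and Cavin1 stayed below 0 under all 15 alternatives, between -1.91 and -1.25, -1.96 and -1.52, and -0.94 and -0.62. Groups of these genes do not overlap, so leaving out a library could not change the sign. Of the 7 coat genes, 4 to 7 were below 0 when 1 library was left out, with 4 without control replicate 2. Over all genes 430 were called. The count was 0 with no filter (limma gave 4327 genes an unadjusted p under 0.05), 41 with no trend in limma, 649 at a mean of at least 5 TPM, 765 without small RNA genes and 650 with the GC trend removed. Leaving out 1 library gave 1 to 92 calls: 7 or 1 without control replicate 1 or 2, and 12 or 92 without Qk_KO replicate 1 or 2. In the caveola partner list the 1 call (Flnc) was 0 with no filter and without the trend, and 0 with any 1 library left out. Tagln went from -0.84 without Qk_KO replicate 1 to 0.41 without Qk_KO replicate 2. With the replicate number as a block, 1278 genes were called and 4 partners: Flnc, Plvap, Egfr and Cd44. Same-numbered libraries shared deviations only weakly (r = 0.11 across genes), and the labels do not say that numbers mark pairs. The same 3 coat genes were among the genes called with the block. They were chosen with this contrast known, so nothing is read from that. Causes of these shifts were not tested. TPM keeps no depth, so 2 libraries a group set the limit.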
